A study of Mus musculus with 6 samples.

Results

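The genes described here are 31 genes of cholesterol and fatty acid synthesis, taken by name from the 22547 genes of a single-cell RNA count table of mouse mammary tumour tissue. They comprise 17 enzymes of sterol synthesis, 3 regulators of the pathway and 11 genes of fatty acid synthesis, elongation and desaturation, and all 31 have a row in the table. The study asks what changes in tumour tissue and its surroundings between a growing mammary tumour, the residue left after drug treatment and a tumour that grows back. Tumours carrying MMTV-Wnt1, in which the mammary tumour virus promoter drives Wnt1, and an inducible FGF receptor were transplanted into mice, and the B/B homodimerizer, a drug that switches the receptor on by pairing it, was injected until they grew without it. The FGF receptor inhibitor NVP-BGJ398 was then given by gavage for 14 days and stopped for 14 days, after which residual tissue was collected or tumours were left to recur. All libraries came from mammary gland of strain FVB (FVB.rGH-Luc-GFP), at 8 to 10 weeks of age for Primary (genotype label MMTV-Wnt1/iFGRR2), 10 to 12 for Dormant (MMTV-Wnt1/iFGRR1), 32 to 34 for Long-term dormant (MMTV-Wnt1/iFGRR4) and 20 to 22 for Recurrent (MMTV-Wnt1/iFGRR3). The labels share 1 treatment text, which gives no separate schedule for Primary, and say neither how many mice each library holds nor what the numbers after iFGRR stand for. Stage and age cannot be told apart, and each stage is 1 library, so no test between stages can be made and every interval below covers counting error only.

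Cells had been frozen, thawed and sorted live with DAPI, and version 2 of the Chromium 3' reagents was used for every stage library. The deposited table held 3541 to 6083 cells per library and 14185689 to 41259292 UMIs, a UMI being 1 counted RNA molecule, with 2568 to 7065 as the median per cell. Each library shared 79 to 116 cell barcodes with another. After filtering, 4275 Primary, 3276 Dormant, 5867 Long-term dormant and 4628 Recurrent cells were used. The doublet caller marked none in Dormant, which was not looked into, so doublets may remain there. Cells were clustered without the lipid genes and classes were named from markers. The luminal-like class held 1661, 97, 109 and 2611 cells in Primary, Dormant, Long-term dormant and Recurrent, in that order, which is the order of all lists of values below unless other libraries are named. The macrophage- or monocyte-like class, called macrophage-like from here, held 1260, 206, 1123 and 1269 cells. The basal-like class held 442, 181 and 53 cells, with 16 in Recurrent, and the fibroblast-like class 300, 2901 and 104, with 7 in Primary; classes under 50 cells were not compared. Each marker list was highest in the class named from it: the 14 luminal markers summed to between 13894 and 34678 counts per 1000000 UMIs of the class (CPM) in luminal-like cells and to 3302 at most in the other 3 classes, and the 13 basal markers to between 2782 and 9455 in basal-like cells and to 193 at most elsewhere. In basal-like cells of Primary, however, the basal markers (2782) summed to less than the luminal (3302) and macrophage markers (4052). UMIs of the eGFP transgene were seen in 99.8%, 77.3% and 99.0% of luminal-like cells of Primary, Dormant and Recurrent but in 1.83% in Long-term dormant, and the basal-like class had 99.5%, 90.6% and 1.89%, so epithelial-like cells of the Long-term dormant library largely lacked the mark carried by those of the others. Different clusters also held most of the luminal-like class in each library: cluster 4 (led by Aqp5 and Scgb2b27) in Primary and Dormant, cluster 27 (led by Calca and Upk3a) in Long-term dormant and cluster 0 (with Klk10 and Ltf among its leading genes) in Recurrent.

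Cells make cholesterol from acetyl-CoA through the mevalonate pathway and then squalene and lanosterol, and make fatty acids by carboxylating acetyl-CoA, extending the chain and adding double bonds. SREBP2 (Srebf2) mainly drives the sterol genes and SREBP1 (Srebf1) mainly the fatty acid genes, and INSIG1 (Insig1) holds both in the endoplasmic reticulum when sterols are plentiful. In the mammary gland the secretory luminal cells make fatty acids for milk fat, and Thrsp, also called Spot 14, is a small protein known to raise fatty acid synthesis there.

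Promoter sequences from RefSeq (GRCm38.p6) were found for 25 of the 31 genes and were searched on both strands, from 250 bases before the start to 50 after it, for letters of sites that the pathway's regulators are known to use. The sterol regulatory element letters TCACCCCAC were in the window of Hmgcs1 alone among the 25, against 0.614% of all 27025 genes in the promoter table. TCACNCCAC gave no further gene, against 1.44% of all genes. The letters ATTGG, a core that NF-Y reads, were in the windows of 22 of the 25 genes, against 41.1% of all genes in the promoter table: 14 sterol enzymes, the 3 regulators, and Fasn, Acly, Elovl5, Thrsp and Acss2. The letters GGGCGG, which Sp1 reads, were in 19 of the 25, against 38.2% of all genes. Shown are the 250 bases before the start, 5′ to 3′ on the strand of the gene, for Hmgcs1 (chr13:119690101-119690350, plus strand), the gene with the element; Insig1 (chr5:28071162-28071411, plus strand), the regulator that stood highest in Dormant macrophage-like cells; and Thrsp (chr7:97417551-97417800, minus strand) and Fads2 (chr19:10101504-10101753, minus strand), which had the largest ratios between Dormant and Primary in luminal-like cells. They were chosen after the values were seen, and capitals mark TCACCCCAC and ATTGG or its reverse complement CCAAT.
Hmgcs1: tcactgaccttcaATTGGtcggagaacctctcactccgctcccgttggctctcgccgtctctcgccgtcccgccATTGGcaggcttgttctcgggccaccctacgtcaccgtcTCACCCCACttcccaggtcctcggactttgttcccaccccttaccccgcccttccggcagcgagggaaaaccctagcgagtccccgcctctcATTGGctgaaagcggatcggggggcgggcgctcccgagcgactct
Insig1: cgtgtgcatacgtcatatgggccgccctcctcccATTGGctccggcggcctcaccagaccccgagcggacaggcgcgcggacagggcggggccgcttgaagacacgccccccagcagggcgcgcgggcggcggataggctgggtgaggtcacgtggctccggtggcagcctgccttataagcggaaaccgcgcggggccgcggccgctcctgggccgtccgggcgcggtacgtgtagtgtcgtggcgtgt
Thrsp: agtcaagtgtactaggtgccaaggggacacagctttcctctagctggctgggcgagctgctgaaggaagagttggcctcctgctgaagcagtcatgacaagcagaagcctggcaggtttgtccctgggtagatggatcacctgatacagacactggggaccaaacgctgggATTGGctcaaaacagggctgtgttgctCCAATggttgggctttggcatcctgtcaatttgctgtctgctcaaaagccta
Fads2: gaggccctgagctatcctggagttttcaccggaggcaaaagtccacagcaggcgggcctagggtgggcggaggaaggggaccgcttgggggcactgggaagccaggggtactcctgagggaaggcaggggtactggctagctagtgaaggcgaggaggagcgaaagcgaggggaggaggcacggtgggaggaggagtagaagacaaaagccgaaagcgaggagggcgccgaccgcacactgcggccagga

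Hmgcs1 shows the element and 3 ATTGG cores in this stretch, Insig1 shows 1 core and Thrsp 2, while Fads2 has neither set of letters. A match is a description of the letters and not of a bound site. The starts are those of RefSeq, while the gene spans given below come from another annotation. By those spans, part of the Insig1 stretch and most of the Thrsp and Fads2 stretches lie within the gene.

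Summed over each list, the sterol genes of luminal-like cells were close in Primary, Dormant and Recurrent, and the fatty acid genes were not. In luminal-like cells the 17 sterol enzymes together made up 405, 372, 260.0 and 385 CPM. The interval of Dormant (336 to 410) overlapped those of Primary (393 to 417) and Recurrent (378 to 392), which lay just clear of each other, and Long-term dormant (222 to 303) lay below all of them. The 11 fatty acid genes summed to 1076, 803, 660.0 and 1954, with no overlap between the intervals of any of the 4 libraries. Recurrent was 1.28 above Dormant on the log2 scale (1.19 to 1.38) and 0.86 above Primary (0.83 to 0.89), and Dormant was 0.42 below Primary (log2 -0.42, -0.52 to -0.32). Thrsp alone gave 42.4% of the summed UMIs in Primary and 58.2% in Recurrent: without it the other 10 genes summed to 620.3, 709, 509 and 818, so that Dormant was above Primary (log2 0.19) and Recurrent above Dormant by 0.20 in log2. In macrophage-like cells the sterol enzymes summed to 214, 242, 226 and 190.0 and the fatty acid genes to 142, 142, 181 and 184. Fibroblast-like cells of Dormant, Long-term dormant and Recurrent had 212, 229 and 265 for the sterol enzymes and 280.3, 391 and 454 for the fatty acid genes. Basal-like cells of Primary, Dormant and Long-term dormant had 309, 261 and 177, and 518, 494 and 325. With predicted doublets kept, the summed fatty acid ratio of macrophage-like cells in Recurrent against Dormant was 0.95 on the log2 scale against 0.37 without them, and the doublet caller had marked 57 cells in Recurrent. The plot of summed levels shows the fatty acid list spread out in luminal-like cells, and the sterol list lowest in Long-term dormant in both epithelial-like classes.

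**Figure D1:**
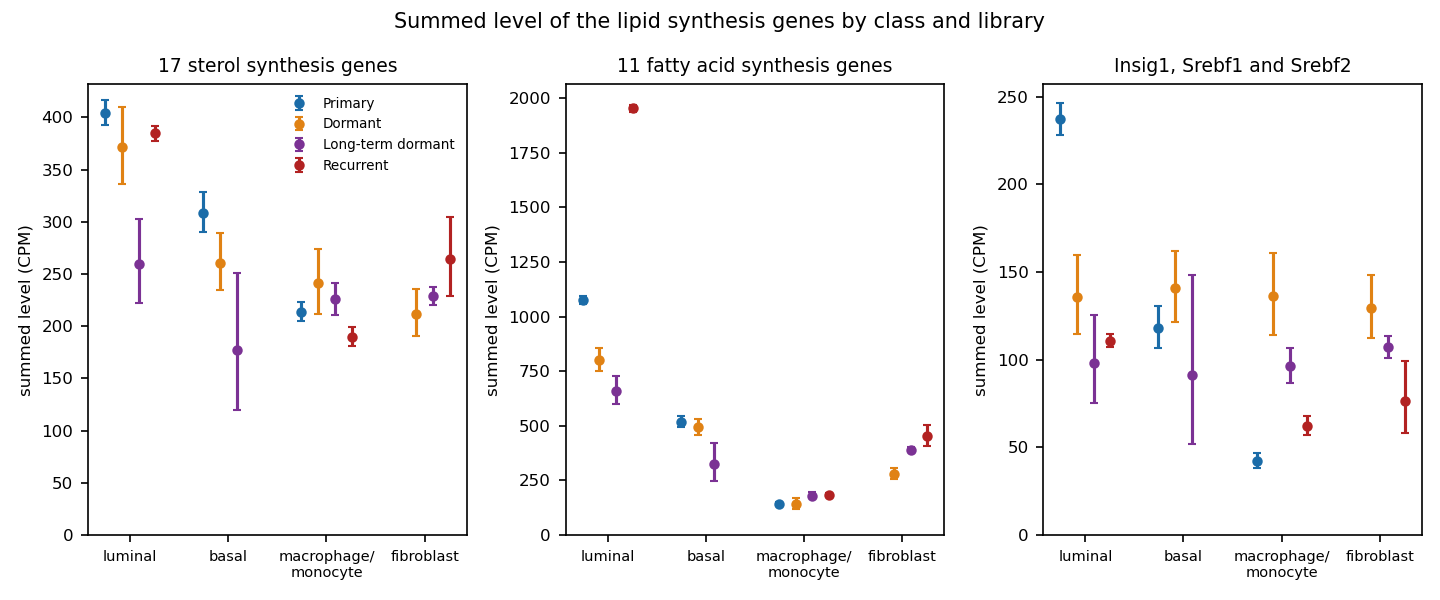
Summed CPM of the class (y axis) for the sterol synthesis, regulator and fatty acid synthesis genes in each class and library, with 95% counting intervals. In luminal-like cells the fatty acid genes reach 1954 in Recurrent against 803 in Dormant, while the sterol genes lie between 260.0 and 405.

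The sterol enzymes of luminal-like cells are described in pathway order. Each was compared between 2 libraries as a log2 ratio, and a gene with at least 20 UMIs over both libraries and a ratio of at least 2-fold is counted as higher or lower. Between Dormant and Primary, 2 of the 31 genes were at least 2-fold higher, Fads1 and Fads2, where 9.69% of all 10751 genes tested were, and 3 were lower, Dhcr7, Srebf1 and Thrsp, where 11.3% were. Among the 17 sterol enzymes 0 were higher and 1 was lower. Hmgcs1, which makes HMG-CoA, had 21.0, 25.1, 24.9 and 19.0 CPM, and all 4 intervals overlapped. Of the mevalonate enzymes, Mvk had 8.31, 11.1, 6.23 and 9.70, Pmvk 37.3, 56.7, 29.6 and 43.4 and Mvd 10.3, 7.43, 4.67 and 16.7. Mvd was the only one of these 3 to reach 2-fold, in Recurrent against Dormant (log2 1.08, 0.18 to 2.39). Idi1, the isomerase that makes dimethylallyl diphosphate, had 31.4, 34.4, 12.5 and 28.4 and stood lower in Long-term dormant than in Dormant (log2 -1.40, -2.78 to -0.34).

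Fdps, which joins isoprenoid units to farnesyl diphosphate, had 69.9, 65.0, 40.5 and 68.1 CPM. Its intervals in Primary, Dormant and Recurrent overlapped. Fdft1, squalene synthase, had 21.4, 29.7, 24.9 and 19.6, and Sqle, which adds oxygen to squalene, had 36.0, 21.4, 15.6 and 26.0, highest in Primary (32.6 to 39.8) without overlap with any of the other 3. Lss, which closes the ring to lanosterol, was low throughout, at 3.47, 4.65, 0 and 3.24, the 0 allowing up to 4.67 CPM at 3 UMIs. After lanosterol, Cyp51 had 11.8, 7.43, 12.5 and 14.1, Tm7sf2 3.1, 1.86, 3.11 and 2.57 and Msmo1 22.8, 14.9, 14.0 and 32.0. Msmo1, a methyl oxidase, was 2.09-fold higher in Recurrent than in Dormant (log2 1.06, 0.40 to 1.92), and Recurrent did not overlap Primary either. Nsdhl had 13.6, 9.29, 3.11 and 12.8, Hsd17b7 7.85, 8.36, 1.56 and 6.56, Ebp 67.4, 53.0, 48.3 and 59.3 and Sc5d 16.2, 13.9, 17.1 and 14.2. Of the 17 enzymes, 9 differed by less than 2-fold between their highest and lowest library, and the median was 1.91-fold. Dhcr7, which carries out the last step to cholesterol by the Kandutsch-Russell route, had 22.5 (19.8 to 25.5), 7.43 (3.21 to 14.7), 1.56 (0.0394 to 8.67) and 9.14 (8.06 to 10.3). Primary stood above the other 3 libraries with no overlap, by 2.86-fold over Dormant (log2 -1.52, -2.83 to -0.60) and 2.47-fold over Recurrent (log2 -1.30, -1.56 to -1.05).

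**Figure D2:**
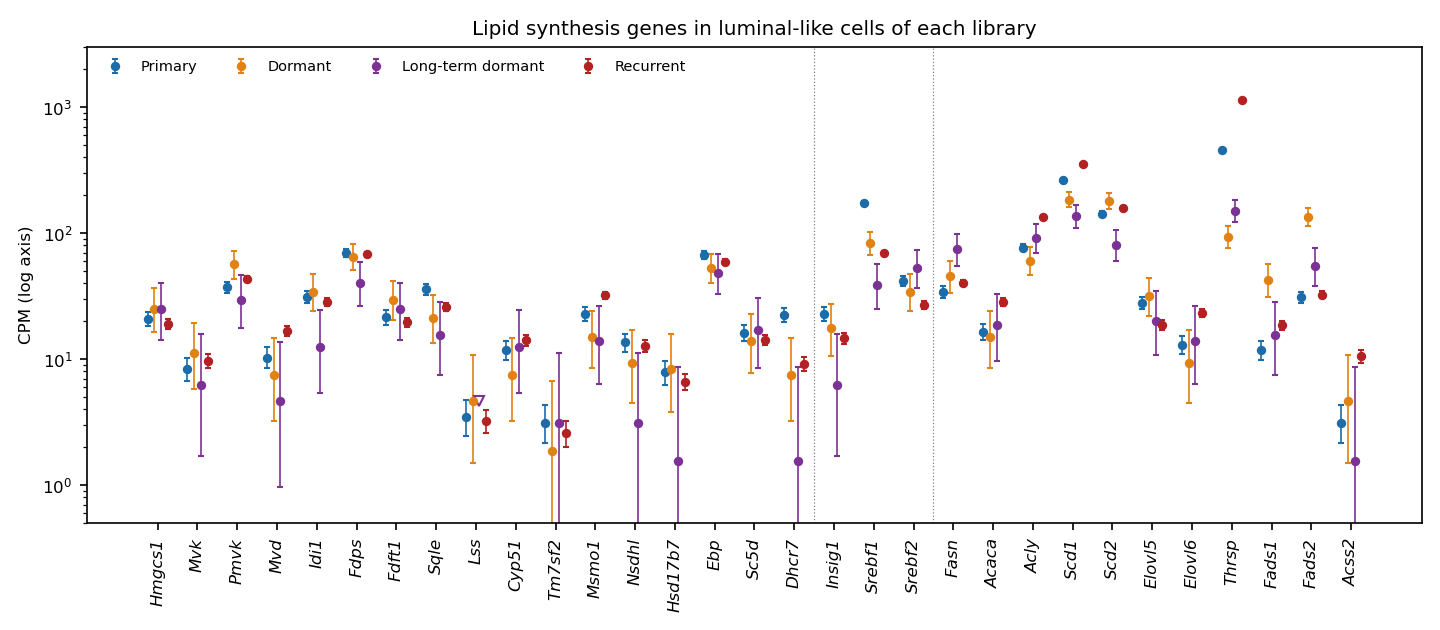
CPM in luminal-like cells (log axis) for each of the 31 genes in each library, with 95% counting intervals, some of which run below the axis; the open triangle is the limit of 3 UMIs for a count of 0. Thrsp spans 93.8 to 1136, while most sterol enzymes lie within a 2-fold band over Primary, Dormant and Recurrent.

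Thrsp lies on chromosome 7 of GRCm38, from 97412938 to 97417730 on the minus strand. Luminal-like cells had 456 (443 to 469), 93.8 (76.4 to 114), 151 (122 to 184) and 1136 (1124 to 1148) CPM. No 2 of the 4 intervals overlapped, and Recurrent was above all the others. The place of Long-term dormant above Dormant rested on few cells: its 107 cells without an eGFP UMI, of 109, held 65 of the 97 Thrsp UMIs and had 106 CPM (81.7 to 135), which overlapped Dormant. Recurrent was 12.0-fold above Dormant (log2 3.59, 3.32 to 3.89) and 2.49-fold above Primary (log2 1.32, 1.27 to 1.36), and Dormant was 4.84-fold below Primary (log2 -2.27, -2.58 to -2.0). Shares of cells also put Recurrent highest and Primary next. Thinned to 1000 UMIs per cell, 24.6%, 2.06%, 6.48% and 48.5% of luminal-like cells had a Thrsp UMI, against 58.7%, 20.6%, 21.1% and 85.4% without thinning. Dormant and Long-term dormant, with 97 and 109 cells, lay close without thinning, so these shares do not rank them. Macrophage-like cells, taken as a class that should lack Thrsp, had 0.398% in Primary and 1.98% in Recurrent when thinned. Their median depth was 7316 and 6747 UMIs per cell, against 5639 and 9573 in luminal-like cells. Thinning left out 10 Primary, 0 Dormant, 1 Long-term dormant and 20 Recurrent luminal-like cells, and 4 and 8 macrophage-like cells of Primary and Recurrent. Milk genes were also highest in Recurrent: the 7 of them summed to 10079, 3067, 12561 and 18229.5 CPM of the luminal-like class, and 8 proliferation genes to 354, 165, 77.8 and 146, and the part of either in the Thrsp differences was not tested.

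The enzymes that build the fatty acid chain differed less between libraries than Thrsp. Acly, which makes cytosolic acetyl-CoA from citrate, had 76.7, 60.4, 91.8 and 135 CPM in luminal-like cells, and Recurrent (131 to 139) was above the other 3 without overlap (log2 against Dormant 1.15, 0.81 to 1.54). Acss2, which makes acetyl-CoA from acetate, had 3.1, 4.65, 1.56 and 10.5 and was 3.36-fold higher in Recurrent than in Primary (log2 1.75, 1.25 to 2.32). Acaca, the carboxylase that commits carbon to fatty acids, had 16.5, 14.9, 18.7 and 28.4. Fasn, the synthase itself, had 34.1, 45.5, 74.7 and 40.1, highest in Long-term dormant (55.1 to 99.1), whose interval overlapped that of Dormant but not those of Primary and Recurrent. Elovl6, an elongase of saturated chains, had 13, 9.29, 14.0 and 23.3 (log2 in Recurrent against Dormant 1.26, 0.44 to 2.39), and Elovl5, an elongase of polyunsaturated chains, had 27.9, 31.6, 20.2 and 18.7. The desaturase Scd1, which makes monounsaturated fatty acids, had 263 (254 to 273), 185 (160 to 212), 137 (110 to 169) and 351 (345 to 358), highest in Recurrent with no overlap. Its neighbour on chromosome 19, Scd2, had 143, 180.2, 80.9 and 159, lowest in Long-term dormant (log2 against Dormant -1.14, -1.63 to -0.71). Between Recurrent and Dormant, 4 of the 11 fatty acid genes and 2 of the 17 sterol enzymes were at least 2-fold higher (10.5% of 11520 genes), namely Thrsp, Acly, Elovl6, Acss2, Mvd and Msmo1, the interval of Acss2 reaching below 0 (log2 1.05, -0.06 to 2.82). Fads1 and Fads2 were lower (13.9% of genes). Between Recurrent and Primary, Thrsp and Acss2 were higher (5.56% of 11836 genes) and Dhcr7 and Srebf1 lower (8.33%).

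Fads1 and Fads2, the delta-5 and delta-6 desaturases that make long polyunsaturated fatty acids, ran against Thrsp in Dormant. They are neighbours on chromosome 19 of GRCm38, Fads2 at 10062765 to 10101746 on the minus strand and Fads1 at 10182888 to 10196877 on the plus strand. Fads2 had 30.9 (27.7 to 34.4), 135 (114 to 158), 54.5 (38.0 to 75.8) and 32.6 (30.5 to 34.8) CPM in luminal-like cells. Dormant stood above each of the other libraries with no overlap, 4.36-fold over Primary (log2 2.13, 1.83 to 2.41) and 4.15-fold over Recurrent (log2 -2.05, -2.30 to -1.78), and Primary and Recurrent overlapped. Fads1 had 11.8 (9.83 to 14.0), 42.7 (31.3 to 57.0), 15.6 (7.47 to 28.6) and 18.6 (17.03 to 20.2), again highest in Dormant with no overlap (log2 against Primary 1.87, 1.34 to 2.36; against Recurrent -1.22, -1.64 to -0.73). Fads3, a related desaturase beside Fads2 and not among the 31 genes, had 4.47, 40.9, 10.9 and 16.4 (log2 in Dormant against Primary 3.19, 2.57 to 3.81). Thinned to 1000 UMIs, 2.30%, 11.3%, 6.48% and 2.78% of luminal-like cells had a Fads2 UMI, against 0.0796% and 0.0793% of macrophage-like cells of Primary and Recurrent. In Dormant, all 145 Fads2 UMIs, all 46 Fads1 UMIs and all 101 Thrsp UMIs of the class lay in the 75 cells that also had an eGFP UMI, where Fads2 reached 159 CPM. Long-term dormant was 2.45-fold below Dormant for Fads2 (log2 -1.29, -1.88 to -0.77) and 2.64-fold below for Fads1 (log2 -1.40, -2.61 to -0.45), in cells that lacked eGFP almost throughout.

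Of the regulators, Srebf1 had 173 (165 to 181), 83.6 (67.2 to 103), 38.9 (25.2 to 57.4) and 69.3 (66.3 to 72.5) CPM in luminal-like cells. Primary was highest with no overlap, 2.06-fold over Dormant (log2 -1.04, -1.37 to -0.74) and 2.49-fold over Recurrent (log2 -1.32, -1.41 to -1.23). Thrsp and Scd1 were highest in Recurrent, and the part of Srebf1 in their levels was not tested. Srebf2 had 41.6, 34.4, 52.9 and 26.8 and Insig1 22.7, 17.7, 6.23 and 14.7, Recurrent being below Primary without overlap for both. Between Long-term dormant and Dormant, 21 of the 31 genes had enough UMIs, of which 0 were higher (6.93% of 6682 genes) and 6 lower (10.1%): Fads1, Fads2, Idi1, Insig1, Scd2 and Srebf1, with an interval reaching above 0 for Insig1 (log2 -1.37, -3.52 to 0.09). The median log2 ratio of the genes tested was -0.42 there against -0.05 over all genes. It was -0.18 for Dormant against Primary (all genes -0.04), -0.02 for Recurrent against Dormant (-0.04) and -0.04 for Recurrent against Primary (-0.06). The plot of ratios shows most of the 31 genes between the 2-fold lines, and Thrsp, Fads1, Fads2, Srebf1, Dhcr7 and Acss2 at or outside them in more than 1 comparison.

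**Figure D3:**
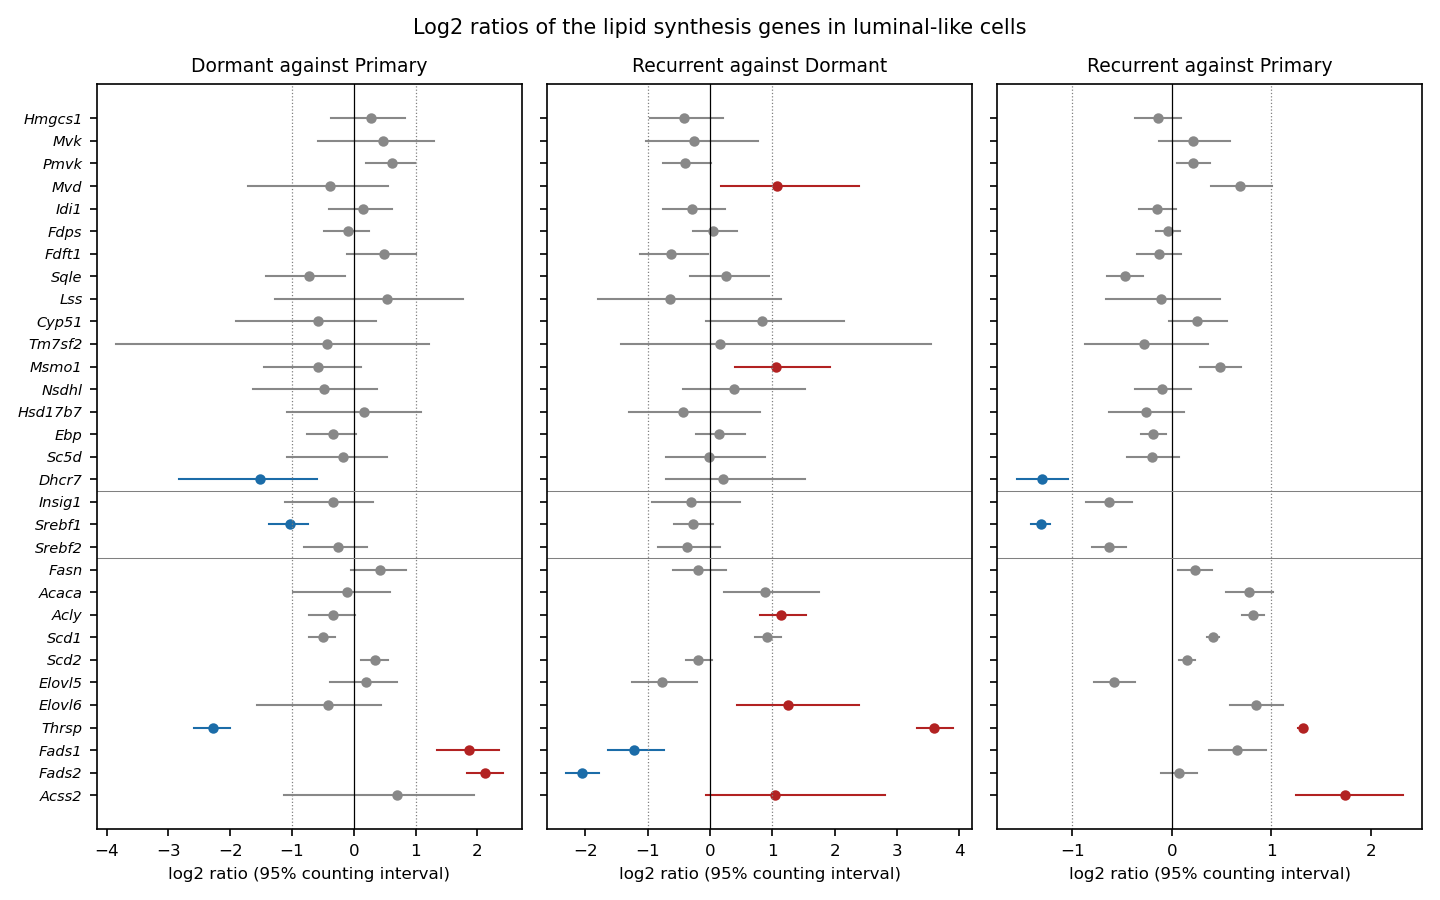
Log2 ratios between libraries for the 31 genes in luminal-like cells, with 95% counting intervals, 1 panel each for Dormant against Primary, Recurrent against Dormant and Recurrent against Primary; red points are at least 2-fold higher and blue points at least 2-fold lower. Thrsp lies at -2.27 for Dormant against Primary and 3.59 for Recurrent against Dormant, and Fads2 at 2.13 and -2.05.

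Within cluster 4, Thrsp was again lowest and Fads1 and Fads2 highest in Dormant. Fads1 in Recurrent, above Primary in the whole class, was not above it here, with overlapping intervals. This cluster, which held 1105 Primary, 52 Dormant and 63 Recurrent cells and had Srebf1 among its 10 leading genes although lipid genes were kept out of the clustering, had 495, 122 and 799.9 Thrsp CPM in these libraries. None of these intervals overlapped. Fads2 was 29.0, 174 and 30.4 in this cluster and Fads1 10.5, 64.2 and 9.12, both highest in Dormant with no overlap (log2 in Dormant against Primary 2.59, 2.24 to 2.93, and 2.62, 2.02 to 3.19). Srebf1 was 215, 98.7 and 119, and Sqle was lower in Dormant than in Primary (log2 -1.36, -2.67 to -0.44). The summed sterol list stood 0.54 below Dormant in Recurrent cells of this cluster (log2 -0.54), where the whole class gave 0.05. Cluster 0 had 451, 288 and 1104 Thrsp CPM in Primary, Long-term dormant and Recurrent, again without overlap. Its Fads2 levels were 20.4 (10.9 to 34.9), 116 (73.6 to 174) and 31 (28.8 to 33.4), Long-term dormant being highest without overlap on 37 cells. In cluster 14, led by genes of dividing cells, Thrsp went from 432 in Primary to 1580.3 in Recurrent, with more Scd1 (58.8 and 199, log2 1.75, 1.49 to 2.04) and Acss2 (2.63 and 10.8, log2 1.94, 0.78 to 3.57). Cluster 22, led by interferon-induced genes, had more Cyp51 in Recurrent than in Primary (log2 1.94, 0.74 to 3.76) and less Srebf1 (log2 -1.61, -2.31 to -0.94). Cluster 27 was the one with little Thrsp, at 4.46 in Dormant and 19.8 in Long-term dormant, and its Fads2 level was 0 (upper limit 16.5) and 19.8.

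**Figure D4:**
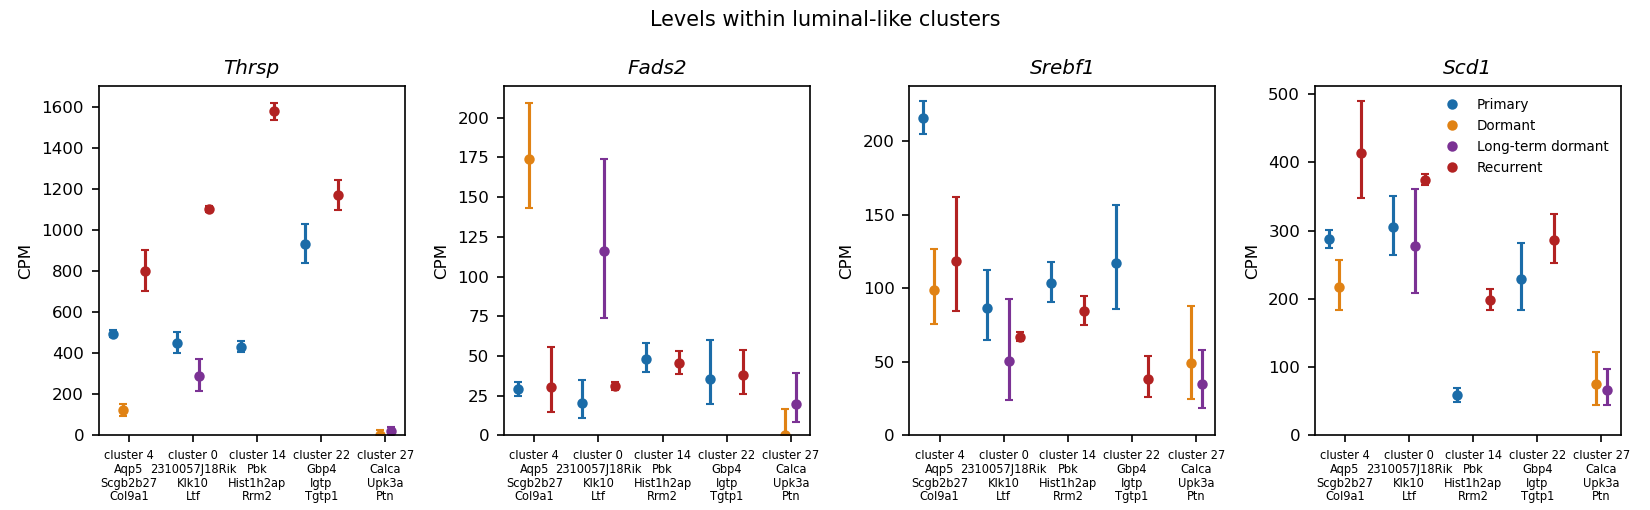
CPM of Thrsp, Fads2, Srebf1 and Scd1 in 5 luminal-like clusters (x axis, with the 3 leading genes of each) and each library with at least 25 cells there, with 95% counting intervals. In cluster 4, Dormant is lowest for Thrsp at 122 and highest for Fads2 at 174.

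In basal-like cells Fads2 was higher and Thrsp lower in Dormant than in Primary. Fads2 had 46.6 (39.4 to 54.6), 131 (112 to 151) and 28.5 (9.26 to 66.5) CPM, and Dormant did not overlap the others (log2 against Primary 1.49, 1.17 to 1.81). Fads1 had 51.2, 92.0 and 39.9, under 2-fold between Dormant and Primary, and Thrsp 147 (134 to 161), 29.2 (20.9 to 39.8) and 5.70 (0.144 to 31.8), so that Primary was 4.98-fold over Dormant for Thrsp (log2 -2.32, -2.84 to -1.87). Of 27 genes tested between Dormant and Primary, 5 were at least 2-fold higher (10.9% of 9536 genes) and 3 lower (15.6%). Beside Fads2, the higher genes were Cyp51 (18.3 against 7.76), Fasn (35.8 against 15.2), Insig1 (43.8 against 21.1) and Sc5d (23.4 against 11.2), and the lower ones beside Thrsp were Sqle (15.3 against 31.7) and Nsdhl (5.11 against 11.5), the interval of Nsdhl reaching 0.02 above 0 on the log2 scale. Their median log2 ratio was -0.14 against -0.22 over all genes. Scd1 had 72.3, 43.1 and 39.9 and Scd2 81.3, 49.7 and 34.2. Srebf1 had 62.7, 69.4 and 51.3, with overlapping intervals. Cluster 12, with Krt17 and Trp63 among its 10 leading genes, held 437 of the 442 Primary cells. Cluster 20, with Acta2, Mylk and Cnn1 among its leading genes, held 171 of the 181 Dormant cells. Library and cluster therefore cannot be told apart for this class. The 53 Long-term dormant cells had 0 UMIs for 9 of the 17 sterol enzymes, and of the 21 genes tested against Dormant, 0 were higher (12.3% of 6262 genes) and 10 lower (13.4%), among them Fads2 (log2 -2.06, -3.84 to -0.95). Of these 10, Cyp51, Idi1, Msmo1 and Sqle had 0 UMIs there, and at the limit of 3 UMIs that a count of 0 allows their fold was no more than 1.07. The intervals of Fads1, Fads2 and Insig1 alone stayed below 0. Macrophage markers were present in this class at 4052, 3422 and 4214 CPM for the 16 markers together, against 1191 at most in luminal-like cells, and their part in the values was not tested.

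In macrophage-like cells Insig1, Srebf2, Cyp51 and Sc5d were at least 2-fold higher in Dormant than in Primary. Insig1 had 17.8 (15.3 to 20.7), 91.4 (73.5 to 112), 48.4 (41.6 to 55.9) and 38.7 (34.7 to 43.1) CPM. Dormant was above every other library and Primary below every other one, with no overlap, a 5.14-fold difference (log2 2.36, 1.97 to 2.73). Srebf2 had 12.6 (10.5 to 15.1), 29.4 (19.7 to 42.3), 34.5 (28.9 to 41.0) and 13.1 (10.8 to 15.7), so that both dormant libraries overlapped and stood above Primary and Recurrent. Srebf1 had 11.9, 15.2, 13.6 and 10.5, all overlapping. Cyp51, the demethylase that acts on lanosterol, had 3.67 (2.57 to 5.08), 17.3 (10.1 to 27.6), 10.1 (7.14 to 13.9) and 4.82 (3.48 to 6.52), again with both dormant libraries above the others (log2 in Dormant against Primary 2.26, 1.31 to 3.1). Sc5d, which adds a double bond to the sterol ring, had 5.60, 13.2, 5.85 and 5.51 (log2 1.28, 0.24 to 2.13). The summed sterol list did not follow: its log2 ratio was 0.18 (-0.02 to 0.37) for Dormant against Primary, and Ebp, the sterol isomerase, had 68.2, 55.8, 76.8 and 61.1. Of 27 genes tested, 5 were higher (11.4% of 9515 genes) and 2 lower (9.85%), with a median of 0.38 against 0.05 over all genes. The fifth of the higher genes, Scd1, had 6 UMIs in Dormant and an interval from -0.60 to 2.23, and of the lower ones Dhcr7 had 2 UMIs and Thrsp 0 in Dormant.

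Later stages gave partly the reverse in macrophage-like cells. Recurrent was lower than Dormant for Cyp51 (log2 -1.86, -2.68 to -0.93), Insig1 (-1.24, -1.58 to -0.89), Sc5d (-1.30, -2.17 to -0.25) and Srebf2 (-1.19, -1.77 to -0.53), 4 of 27 genes where 10.4% of 9429 genes were lower, and higher for Scd2 (1.11, 0.52 to 1.83) and Thrsp, 2 of 27 where 9.84% were higher. Insig1 was still 2.17-fold higher in Recurrent than in Primary (log2 1.12, 0.85 to 1.39), 1 of 4 genes higher of 29 (4.21% of 10206 genes) beside Scd1, Thrsp and Elovl6, the last with an interval reaching below 0, and 0 of 29 were lower (2.18%). Between Long-term dormant and Dormant, Hsd17b7 and Sqle were higher, 2 of 24 (11.8% of 8512 genes), each with an interval reaching below 0, and Sc5d was lower (6.33%). Elovl5 was 19.9, 30.5, 60.3 and 20.4, highest in Long-term dormant (52.7 to 68.7) with no overlap, and Acly was 32.6, 49.8, 67.5 and 40.1. Scd2 was 45.2 and 49.3 in Primary and Recurrent and 22.3 and 17 in Dormant and Long-term dormant, a split without overlap. Clusters 2 and 8 held most macrophage-like cells of Primary and Recurrent and cluster 3 most of both dormant libraries. Values within clusters are therefore given for Insig1, and for Srebf2 in cluster 3. They are not given for Cyp51 and Sc5d, and the part of cluster make-up in their differences was not tested. In cluster 2, Insig1 had 21.2 in Primary, 101 in Dormant and 45.9 in Recurrent (log2 in Dormant against Primary 2.27, 1.64 to 2.84), with no overlap. In cluster 3 it had 43.6 (21.8 to 78.1), 83.1 (61.8 to 109), 51.3 (43.8 to 59.8) and 29.1 (17.5 to 45.4), Primary and Dormant overlapping. Srebf2 in cluster 3 was higher in Dormant than in Primary on 21 and 2 UMIs (log2 1.82, 0.08 to 5.24).

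Fibroblast-like cells could be compared among Dormant, Long-term dormant and Recurrent. Different clusters held them: cluster 21, led by Crabp1 and Apod, had 135 of the 300 Dormant cells, 7 of the 2901 Long-term dormant cells and 0 in Recurrent, while clusters 1 and 6 held most of the cells of Long-term dormant and Recurrent. Hsd17b7, a ketoreductase that acts with Nsdhl in removing methyl groups from the sterol ring, had 8.06 (4.29 to 13.8), 27.7 (24.7 to 30.96) and 16.1 (8.33 to 28.1) CPM, so that Long-term dormant was 3.32-fold over Dormant (log2 1.73, 0.99 to 2.71) and overlapped Recurrent. It was 2.15 in Dormant (on 1 UMI) and 25.2 in Long-term dormant within cluster 6, and 15.9 and 29.2 with overlap in cluster 1, and the whole class held 312 UMIs in Long-term dormant. Fdps went the other way, at 31 (23.0 to 40.9), 14.2 (12.1 to 16.6) and 25.5 (15.4 to 39.8), Dormant and Long-term dormant not overlapping (log2 -1.14, -1.59 to -0.64). Of 29 genes, 4 were higher in Long-term dormant than in Dormant (7.48% of 11205 genes), Hsd17b7, Fdft1, Elovl6 and Acss2, and 2 lower (9.91%), Fdps and Dhcr7, with intervals across 0 for Acss2 and Dhcr7 and a median of 0.11 against -0.05 over all genes. Acly had 48.4, 92.4 and 77.9, and Scd2 72.5, 102 and 134, in each case lowest in Dormant without overlap with Long-term dormant. Insig1 had 79.4 (66.2 to 94.4), 49.6 (45.6 to 53.9) and 40.3 (27.2 to 57.5), highest in Dormant with no overlap. This was not seen within clusters 1 and 6: Insig1 had 47.6 in Dormant and 57.0 in Long-term dormant in cluster 1, and 43.1 and 36.8 in cluster 6, with overlap in both, against 123 (98.6 to 152) in the Dormant cells of cluster 21. Between the same libraries, Fdps, Acly and Scd2 kept apart without overlap in cluster 1 (log2 -1.65, 0.69 and 0.91 in Long-term dormant against Dormant) and overlapped in cluster 6. Srebf2 had 31.6, 33.0 and 12.1, and was lower in Recurrent than in Long-term dormant (log2 -1.37, -2.59 to -0.51), 1 of 30 genes where 9.73% of 11012 genes were lower, while 3 of 30 were higher (5.78%), Sc5d, Tm7sf2 and Thrsp. The plot of stromal genes shows Insig1 highest in Dormant in both classes and Hsd17b7 highest in Long-term dormant in fibroblast-like cells.

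**Figure D5:**
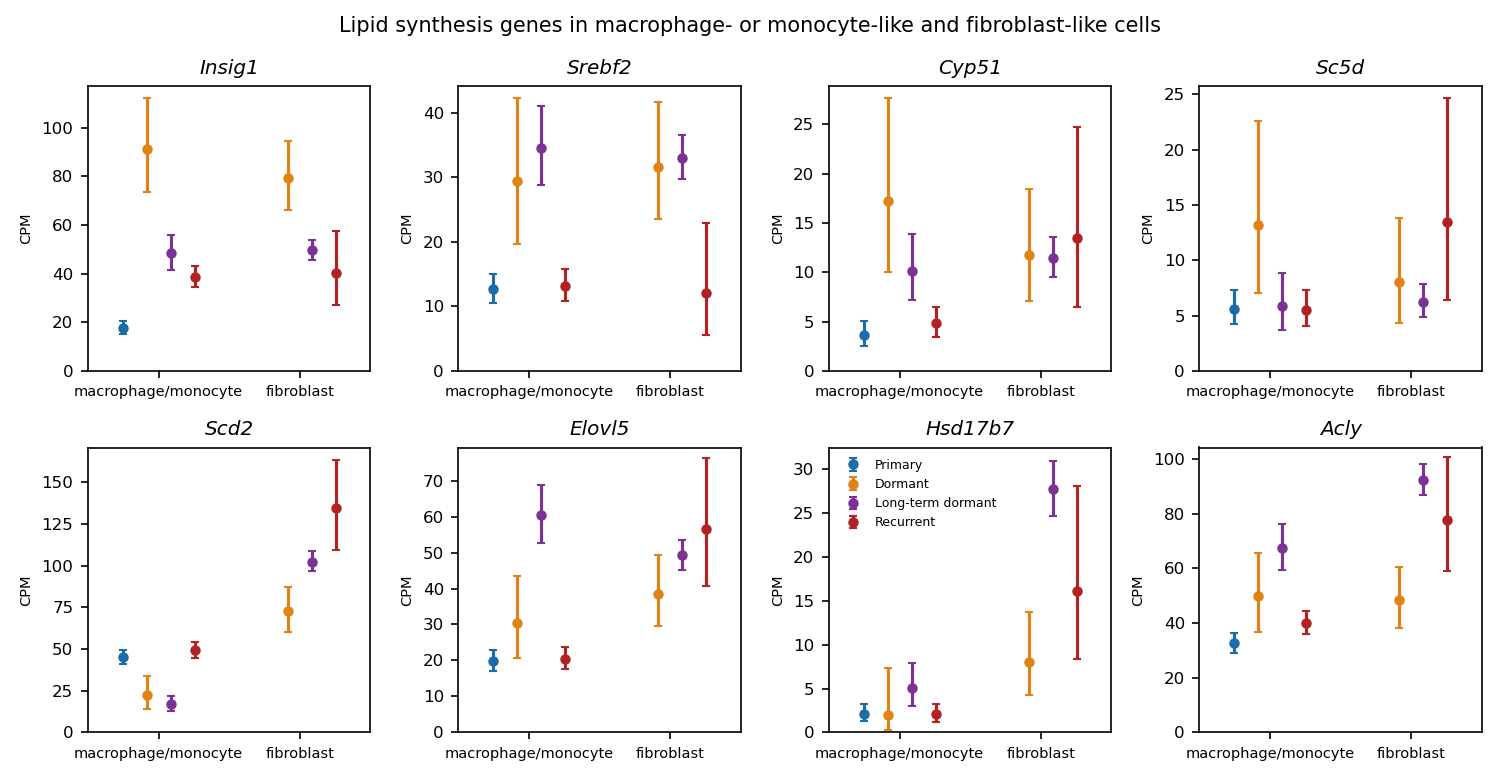
CPM of selected genes in macrophage-like and fibroblast-like cells of each library with at least 50 cells of the class, with 95% counting intervals. Insig1 is 91.4 in Dormant macrophage-like cells against 17.8 in Primary, and Hsd17b7 is 27.7 in Long-term dormant fibroblast-like cells against 8.06 in Dormant.

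Between classes of the same library, several of the genes kept 1 direction. Luminal-like cells were at least 2-fold above macrophage-like cells in each of 4 libraries for 9 of the 23 genes tested in all 4 (9.46% of 6811 genes): Fads2, Fasn, Scd1, Scd2, Thrsp, Srebf1, Fdft1, Fdps and Sqle, and 0 were below in each (10.8%). The log2 ratio of Scd1 lay between 4.81 and 6.36 over the 4 libraries, and that of Fasn between 2.80 and 3.60. Against fibroblast-like cells, luminal-like cells were at least 2-fold higher in each of 3 libraries for 5 of 25 genes (6.49% of 8270 genes), Fads2, Scd1, Thrsp, Fdps and Pmvk, and lower for Insig1 (12.6%), whose log2 ratio lay between -2.83 and -1.48. Against basal-like cells this held for Scd1 and Thrsp, 2 of 12 genes (3.09% of 4149), and 0 were lower in each (3.90%). The log2 ratio of Scd1 against basal-like cells lay between 1.69 and 2.09. The log2 ratio of Fads1 against basal-like cells lay between -2.12 and -1.10 in the 2 libraries with enough UMIs. That of Fads2 lay between -0.59 and 0.82 over 3 libraries. Fibroblast-like cells were above macrophage-like cells in each of 3 libraries for 5 of 20 genes (15.2% of 7815), Fads2, Fasn, Scd1, Scd2 and Hmgcs1, and 0 were below (9.10%).

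Thrsp outside the epithelium was low and is given beside genes made by the epithelium. In Recurrent it had 23.3 CPM in macrophage-like and 29.5 in fibroblast-like cells, 2.05% and 2.60% of its luminal-like level, and the milk gene Csn3 had 2.44% and 2.91% and eGFP 1.12% and 3.01% of theirs. In Primary macrophage-like cells Thrsp stood at 0.737% and Csn3 at 0.911% of the luminal-like level. In fibroblast-like cells of Recurrent, 36.4% of the 22 Thrsp UMIs came from 1 cell. The part of free RNA in these values was not tested. Scd1 in Recurrent stood at 3.37% of its luminal-like level in macrophage-like cells and at 17.6% in fibroblast-like cells, where Csn3 stood at 2.91%. The part of free RNA was not tested for Scd1 either. Adipocytes also make these lipids, and of 11 adipocyte markers 8 to 10 had 0 UMIs in luminal-like cells. All 11 together summed to 12.0, 11.1, 14.0 and 25.3 CPM in luminal-like cells, highest in Recurrent, and nearly all of this was Adig. The 10 markers other than Adig summed to 0 in Primary, Dormant and Long-term dormant luminal-like cells and to 0.141 CPM in Recurrent. An adipocyte part in the lipid gene values was not tested.

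Other genes of the same pathways were counted from lists. Of 10 further sterol genes, 0 were higher (9.69% of 10751 genes) and 1 was lower (11.3%) in Dormant than in Primary luminal-like cells. The lower gene was Mbtps1, the protease that releases SREBP (log2 -1.02, -1.85 to -0.36). Insig2 (-0.56, -1.08 to -0.11) and Scap, the carrier of SREBP (0.33, -0.24 to 0.82), stayed under 2-fold. In macrophage-like cells Stard4, a sterol carrier, and Ggps1 were higher in Dormant than in Primary (log2 1.64, 0.41 to 2.65, and 1.07, 0.25 to 1.77) and Insig2 was lower (-1.06, -2.09 to -0.29), against Insig1 in the other direction. Of 18 further fatty acid genes, 16 were tested in luminal-like cells between Dormant and Primary. Of these, 1 was higher (9.69% of all genes), Fads3, and 1 lower (11.3%), Acsl4, which activates arachidonic acid. Acsl4 had 145, 18.6, 21.8 and 273 CPM, an order like that of Thrsp in that Recurrent was highest and Primary next. Recurrent luminal-like cells were also higher than Dormant ones for Me1 (log2 1.02, 0.65 to 1.44) and for Acacb, which had 0 UMIs in Dormant. With Acsl4 these were 3 of 17 higher (10.5% of 11520 genes), and Fads3 was lower, 1 of 17 (13.9%).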

How the data were processed

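RNA of single cells from mouse mammary tumour tissue was measured in 4 libraries, 1 for each tumour stage; 2 libraries of the series from antibody arms were not used here. The deposited values were raw UMI counts per gene and cell, made with Cell Ranger 3.1.0 against mm10, per the submitters' processing notes, which also name FastQC. No column belonged to another sample, and each library shared 79 to 116 cell barcodes with another.

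Cells were kept from 500 UMIs and 200 genes upward, with a mitochondrial share of no more than 20%. Doublets were predicted with Scrublet in scanpy 1.11.5 (Python 3.11.15), which marked 53 cells in Primary, 137 in Long-term dormant and 57 in Recurrent. It marked 0 in Dormant, where doublets may remain. Counts were scaled to 10000 per cell and logged, and 2000 variable genes, without 104 lipid genes, gave 30 components, 15 neighbours and Leiden clusters (leidenalg 0.10.2) at resolution 1.0; unnamed clusters were clustered once more. Clusters were named from the markers of 18 classes where at least 3 markers were detected in 5% of cells and the 10 leading genes did not go against the name. This naming rule was revised after the clusters were seen, so that the best class was picked only among classes with 3 markers detected. Names and class values may therefore differ from those of the study. A skin-like part of 1 luminal-like cluster was kept out of the class.

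Raw counts were summed per class and library and divided by the UMIs of the class and multiplied by 1000000 (CPM), with exact Poisson 95% intervals. Ratios used a prior of 0.5 counts and an exact conditional interval, and a count of 0 was bounded at 3 UMIs. Ratios were computed for all genes with at least 20 UMIs over both libraries, in classes with at least 50 cells in each. With 1 library per group there was no test, and cells were not treated as replicates. Intervals cover counting error only. Fewer cells of a kind and less RNA per cell cannot be told apart in the sums. TMM factors came from edgeR 4.0.16 (R 4.3.3), as an alternative. Other alternatives were a stricter cell filter (1000 UMIs, 500 genes, 10% mitochondrial), doublets kept, resolutions 0.5 and 2.0, lipid genes allowed in clustering, each cell weighted alike, the median over members, cells with an eGFP UMI, other minimum counts and an interval on 1 side of 0. Single clusters, the skin-like part added, Thrsp or any 1 member left out and scaling without mitochondrial, ribosomal and haemoglobin genes were chosen after seeing the data. The ratio and interval script was tested on simulated data.

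The members and lists were chosen with earlier results of these data known. All 31 members are named; in a comparison, those past 2-fold are named, and of each other list up to 3 genes with the largest ratios, with Insig2, Scap and Mbtps1.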

Additional observations from a re-analysis of the deposited data

Results flagged for a closer look

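In 5 cases a gene moved in opposite directions in 2 classes under the same comparison, with counting intervals on opposite sides of 0. The differences between classes were not tested. What share of all genes meets this rule was not computed, so the count has no background beside it. The rule first also asked for 2-fold in both directions, which gave none, and was widened after that was seen. Idi1, in Long-term dormant against Dormant, had a log2 ratio of 0.95 in fibroblast-like and -1.40 in luminal-like cells, 2.34 apart. Insig1, in Recurrent against Primary, had 1.12 in macrophage-like and -0.63 in luminal-like cells, 1.75 apart. Scd2, in Dormant against Primary, had 0.34 in luminal-like cells against -0.70 in basal-like cells, 1.04 apart, and against -0.99 in macrophage-like cells, 1.32 apart. In Long-term dormant against Dormant, Scd2 had 0.49 in fibroblast-like and -1.14 in luminal-like cells, 1.64 apart. For this case and that of Idi1, luminal-like cells of Long-term dormant and Dormant also differed in eGFP (1.83% and 77.3%) and main cluster (27 and 4).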

How the results depend on the processing

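Of 260 values recomputed for 20 results, 198 stayed within their counting interval, 58 moved, and 4 changed sign against a reported interval on 1 side of 0. In all 28 changed sign, 24 of them where the reported interval crossed 0. No paired analysis was possible because each group has 1 library. All values here are log2 ratios of summed levels, named by class and by stages. The luminal-like fatty acid ratio of Dormant against Primary (-0.42) became -0.21 with doublets kept, -0.23 at resolution 0.5, with lipid genes allowed in clustering and in cells with an eGFP UMI, -0.22 in cluster 4 alone, -0.67 with cells weighted alike and -0.55 with the skin-like part. It turned to 0.20 as a median over members and to 0.19 without Thrsp, and leaving out 1 member at a time gave -0.65 to 0.19. For Long-term dormant against Dormant (-0.28) it was -0.47 with lipid genes allowed, -0.10 with cells weighted alike and -0.48 without Thrsp, and -0.48 to -0.10 with 1 member left out. For Recurrent against Dormant (1.28) it was 1.07 with doublets kept, 1.09 at resolution 0.5, with lipid genes allowed and in eGFP cells, 1.41 with cells weighted alike, 0.89 as a median, 0.63 in cluster 4, 1.40 with the skin-like part, 0.20 without Thrsp, 1.13 scaled without mitochondrial, ribosomal and haemoglobin genes, and 0.20 to 1.53 with 1 member left out. For Recurrent against Primary (0.86) it was 0.93 with TMM, 0.74 with cells weighted alike, 0.65 as a median, 1.43 in cluster 14, 0.40 without Thrsp, 0.75 scaled without those genes, and 0.40 to 0.98 with 1 member left out. The luminal-like sterol ratio was 0.0607 in cluster 4 for Dormant against Primary, -0.23 as a median for Long-term dormant against Dormant, -0.54 in cluster 4 and -0.11 scaled without those genes when Recurrent was set against Dormant. Set against Primary, Recurrent gave -0.00657 with TMM, -0.13 as a median, -0.16 in cluster 14 and -0.18 scaled without those genes. The basal-like fatty acid ratio of Dormant against Primary was 0.0691 with TMM, 0.25 as a median, 0.33 without Thrsp and -0.37 to 0.33 with 1 member left out. In macrophage-like cells the sterol ratio was -0.0524 in cluster 3 for Dormant against Primary, -0.0998 in cluster 3 for Recurrent against Dormant, -0.0202 in cluster 2 when set against Primary and at lowest -0.32 with 1 member left out for Long-term dormant against Dormant. Their fatty acid ratio was 0.38 as a median and at most 0.32 with 1 member left out for Dormant against Primary, turned to -0.0800 as a median for Long-term dormant against Dormant, and was 0.95 with doublets kept for Recurrent against Dormant. Against Primary it was 0.70 with doublets kept, 0.24 as a median and 0.21 without Thrsp, which was also the lowest with 1 member left out. The fibroblast-like sterol ratio of Long-term dormant against Dormant was -0.16 as a median. The cause of these shifts was not tested. TMM moved the median of all genes by 0.14 in basal-like and -0.11 in macrophage-like cells for Dormant against Primary, and by -0.10 in macrophage-like and 0.10 in fibroblast-like cells for Long-term dormant against Dormant. Of the counts of members past 2-fold, a minimum of 5 UMIs in place of 20 moved the luminal-like count from 6 to 11 and the macrophage-like count from 3 to 6 for Long-term dormant against Dormant. A minimum of 100 moved these to 3 and 0, and for Dormant against Primary the basal-like count from 8 to 4 and the macrophage-like count from 7 to 2. Asking also for an interval on 1 side of 0 left 4 of the 7 and 1 of the 3 macrophage-like members. Depth limits the 97 and 109 luminal-like cells of the dormant libraries and the 53 basal-like cells of Long-term dormant most, where many members had under 20 UMIs.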

Other observations

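Several of the 31 genes also differed between libraries in lymphoid and dendritic cells, which no comparison above used. In T-like cells, ordered as Primary, Dormant, Long-term dormant, Recurrent, Insig1 stood at 16.8 (11.4 to 24.0), 46.5 (39.9 to 54.0), 27.9 (14.9 to 47.7) and 20.0 (13.5 to 28.5) CPM, so that Dormant was above Primary and Recurrent without overlap. In NK-like cells it was 80.7 in Dormant (66.7 to 96.8) and 26.6 in Long-term dormant (13.3 to 47.7), and in plasma-like cells of Dormant it was 91.4 (75.6 to 109). Dendritic-like cells had 39.1 in Dormant and 53.1 in Long-term dormant. Mvk, mevalonate kinase, had 3.93 (1.58 to 8.09), 32.6 (27.1 to 38.9), 21.5 (10.3 to 39.5) and 6.65 (3.19 to 12.2) in T-like cells, in the same order. Dormant was again above Primary and Recurrent without overlap, and NK-like cells of Dormant had 41.8 (31.9 to 53.8). Different clusters held the T-like cells. Cluster 5, led by Cd8b1, held 764 of the 1293 Dormant, 144 of the 679 Primary and 82 of the 446 Recurrent cells. Cluster 11, led by Gzmb and Gzmc, held 13, 220 and 227 of them. Values within these clusters were not computed, and the part of cluster make-up in the Insig1 and Mvk differences was not tested. Fads2 was near 0 in T-like, NK-like and dendritic-like cells, at 4.16 or less, but stood at 60.2 (45.4 to 78.1) and 46.0 (23.8 to 80.4) in plasmacytoid dendritic-like cells of Dormant and Long-term dormant. Srebf2 had 58.5, 64.0 and 85.6 in dendritic-like cells of Primary, Dormant and Long-term dormant.

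Genes of lipid storage also differed in Dormant. Hilpda, a lipid droplet protein, had 250.3, 810.3, 244 and 276 CPM in macrophage-like cells, in the same order, and 34.8, 259 and 51.3 in basal-like cells of Primary, Dormant and Long-term dormant. Dgat1, which makes triglycerides, had 9.27, 61.9, 21.3 and 13.9 in macrophage-like cells and 19.0, 43.7, 14.0 and 30.2 in luminal-like cells. Between Dormant and Primary, 3 of 11 storage genes tested were at least 2-fold higher in luminal-like cells (9.69% of all genes), Dgat1, Dgat2 and Hilpda, and 1 was lower (11.3%), Plin3. The same 3 were higher of 10 tested in basal-like cells (10.9%), with 0 lower (15.6%), and these and Plin2 of 10 in macrophage-like cells (11.4%), with 0 lower (9.85%). In macrophage-like cells all 3 were lower in Long-term dormant than in Dormant, with log2 ratios of -1.55 for Dgat1, -2.25 for Dgat2 and -1.73 for Hilpda. Over all genes, 6.33% of 8512 were at least 2-fold lower there. These 3 had been picked as higher in Dormant than in Primary, so a lower value elsewhere is partly built in.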
